A study of Mus musculus with 8 samples.

Results

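ERRα ChIP-seq of skeletal muscle found 2312 sites that were called in WT and in ERRα 3SA phospho-mutant muscle and that shared no base with any interval called in liver. A site was an interval of the WT muscle list with an interval of the 3SA muscle list whose centre lay within 300 bp, and with no overlap with an interval of the WT or the 3SA liver list. The sites were thus chosen by the measured peak calls themselves, and their presence in both muscle lists and absence from both liver lists is a description that carries no test. They made up 9.09% (95% Wilson interval 8.75 to 9.45) of the 25427 WT muscle intervals and 45.0% (43.7 to 46.4) of the 5135 WT intervals with a 3SA partner. The other 2823 intervals of both genotypes overlapped a liver interval and are called liver-overlapping sites here. The remaining 20292 WT muscle intervals had no 3SA partner, that is, no 3SA centre within 300 bp. They were not limited to intervals absent in liver, and some of them shared bases with a 3SA interval. When shared bases replaced the centre limit, 3065 WT intervals absent in liver qualified in place of 2312.

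The muscle was gastrocnemius and soleus from male mice, either WT or ERRα 3SA, of 2 to 3 months of age on a C57BL/6N background, and the antibody recognised ERRα (Abcam ab76228). The 3SA mice carry an ERRα that cannot be phosphorylated at the mutated residues. Each muscle library was made from 5 pooled mice and each liver library from 2, with 3 immunoprecipitations pooled per the labels, so each genotype and tissue is 1 library without replicates, and conditions are described with no p-value. Nuclei were isolated before crosslinking in muscle but not in liver, so the effect of tissue and that of preparation cannot be told apart. The lists hold no read numbers, and the depth behind each site is unknown. Both tissues are mixtures of cell types, and a site cannot be assigned to muscle fibres from the lists. Wilson intervals cover counting error only, since neighbouring sites and sites of 1 gene are not independent. Absence from the liver lists means that no interval passed the authors' FDR limit there, which differs from absence of binding.

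ERRα is an orphan nuclear receptor that works with the coactivators PGC-1α and PGC-1β and is best known for driving mitochondrial and fuel-oxidation genes in tissues with a high energy demand. It binds as a monomer or dimer to the ERR response element (ERRE), TCAAGGTCA, in which the core AGGTCA is shared with many nuclear receptors and the bases before it set the preference for ERRs. In skeletal muscle, contraction genes and genes of the calcium cycle are controlled by myogenic factors that bind E-boxes (CAGCTG) and by MEF2 proteins, which bind an A/T-rich element.

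The first 5 intronic or intergenic sites that held the ERRE within the central 300 bp, in the order of their strength in both muscle lists and among the sites eligible for printing, are shown to make the element and its surroundings visible. All sequences are on the plus strand of GRCm38.p6, with the ERRE in capitals, read there as TCAAGGTCA or as its reverse complement TGACCTTGA. Pik3cd encodes a catalytic subunit of PI3 kinase, P2ry2 an ATP receptor and Kcnc1 a voltage-gated potassium channel. The Pik3cd interval was centred in a SINE, a short interspersed repeat.
Pik3cd, chr4:149690742-149691041: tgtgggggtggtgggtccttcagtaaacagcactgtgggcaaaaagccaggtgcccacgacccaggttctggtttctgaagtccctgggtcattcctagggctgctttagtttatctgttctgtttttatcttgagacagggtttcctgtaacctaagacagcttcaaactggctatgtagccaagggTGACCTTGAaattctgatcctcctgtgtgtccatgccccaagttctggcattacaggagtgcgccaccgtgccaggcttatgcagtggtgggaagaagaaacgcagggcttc
P2ry2, chr7:101002170-101002469: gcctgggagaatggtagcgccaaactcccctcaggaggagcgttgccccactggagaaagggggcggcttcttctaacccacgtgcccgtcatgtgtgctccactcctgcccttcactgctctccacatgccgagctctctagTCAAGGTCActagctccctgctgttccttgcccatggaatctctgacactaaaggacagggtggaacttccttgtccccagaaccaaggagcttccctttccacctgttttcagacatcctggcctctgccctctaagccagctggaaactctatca
Mir7243, chr9:101955110-101955409: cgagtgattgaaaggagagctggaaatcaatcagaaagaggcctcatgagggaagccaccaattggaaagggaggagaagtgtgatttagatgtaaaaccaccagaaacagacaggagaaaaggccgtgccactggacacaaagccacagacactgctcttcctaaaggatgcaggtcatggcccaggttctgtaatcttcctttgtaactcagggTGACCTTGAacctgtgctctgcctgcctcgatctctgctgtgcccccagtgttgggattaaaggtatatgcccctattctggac
Kcnc1, chr7:46403355-46403654: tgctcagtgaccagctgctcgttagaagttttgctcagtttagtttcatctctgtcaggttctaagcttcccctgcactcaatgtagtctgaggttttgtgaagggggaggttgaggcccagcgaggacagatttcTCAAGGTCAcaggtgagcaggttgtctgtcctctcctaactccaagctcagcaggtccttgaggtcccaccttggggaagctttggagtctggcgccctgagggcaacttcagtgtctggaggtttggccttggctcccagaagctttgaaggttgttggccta
1700096P03Rik, chr8:87703262-87703561: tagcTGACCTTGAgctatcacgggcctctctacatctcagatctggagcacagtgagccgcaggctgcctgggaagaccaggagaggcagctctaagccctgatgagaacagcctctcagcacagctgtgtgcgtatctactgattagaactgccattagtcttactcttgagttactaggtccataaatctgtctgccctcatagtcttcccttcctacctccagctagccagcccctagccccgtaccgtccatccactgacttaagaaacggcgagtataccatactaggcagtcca

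The ERRE sites at 3 genes of muscle metabolism and calcium buffering were chosen after their values were seen, because they carry the canonical element beside genes that are typical of muscle fibres. Pfkm encodes muscle phosphofructokinase, Slc25a4 the ADP/ATP carrier of heart and muscle mitochondria and Pvalb parvalbumin, the calcium buffer of fast fibres.
Pfkm, chr15:98117945-98118244: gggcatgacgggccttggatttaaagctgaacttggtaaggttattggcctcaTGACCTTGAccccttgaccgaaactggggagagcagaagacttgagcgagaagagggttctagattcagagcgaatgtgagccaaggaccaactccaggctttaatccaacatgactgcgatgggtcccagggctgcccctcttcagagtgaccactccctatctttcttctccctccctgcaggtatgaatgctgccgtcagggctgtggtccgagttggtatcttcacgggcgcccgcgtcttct
Slc25a4, chr8:46220578-46220877: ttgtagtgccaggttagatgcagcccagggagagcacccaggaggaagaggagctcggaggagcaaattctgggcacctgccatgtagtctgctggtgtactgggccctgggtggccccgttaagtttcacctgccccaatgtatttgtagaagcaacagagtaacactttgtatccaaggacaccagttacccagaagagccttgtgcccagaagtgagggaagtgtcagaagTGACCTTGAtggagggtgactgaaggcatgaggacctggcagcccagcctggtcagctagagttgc
Pvalb, chr15:78194573-78194872: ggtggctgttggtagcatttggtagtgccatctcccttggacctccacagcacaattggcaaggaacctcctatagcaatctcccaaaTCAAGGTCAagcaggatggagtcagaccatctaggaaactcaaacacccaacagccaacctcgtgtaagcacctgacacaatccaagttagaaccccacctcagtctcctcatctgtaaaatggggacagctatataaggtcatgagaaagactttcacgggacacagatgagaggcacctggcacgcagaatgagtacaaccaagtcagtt

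By the same rule, the first 3 intronic or intergenic sites with a MEF2 element are shown for the other type of element, here in capitals.
3425401B19Rik, chr14:32707853-32708152: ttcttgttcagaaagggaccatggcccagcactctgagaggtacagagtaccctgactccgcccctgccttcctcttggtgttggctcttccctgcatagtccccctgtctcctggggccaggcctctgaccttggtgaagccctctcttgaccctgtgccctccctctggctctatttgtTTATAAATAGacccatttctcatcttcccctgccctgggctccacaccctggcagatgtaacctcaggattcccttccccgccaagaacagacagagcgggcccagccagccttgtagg
Srsf10, chr4:135839217-135839516: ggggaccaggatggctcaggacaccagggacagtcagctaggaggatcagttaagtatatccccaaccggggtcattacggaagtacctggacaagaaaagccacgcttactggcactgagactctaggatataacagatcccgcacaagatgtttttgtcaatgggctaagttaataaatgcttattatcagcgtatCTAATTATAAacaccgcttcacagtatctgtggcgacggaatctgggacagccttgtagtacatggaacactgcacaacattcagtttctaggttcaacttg
Galnt2, chr8:124281651-124281950: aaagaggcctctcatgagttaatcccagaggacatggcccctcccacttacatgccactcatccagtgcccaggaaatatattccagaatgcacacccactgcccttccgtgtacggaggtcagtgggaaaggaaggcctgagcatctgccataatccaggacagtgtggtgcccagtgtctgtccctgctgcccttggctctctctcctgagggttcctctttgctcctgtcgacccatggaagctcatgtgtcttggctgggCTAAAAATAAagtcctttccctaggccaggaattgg
All of these letters are matches of a pattern, not measured binding sites.

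The muscle sites lay at varied distances from liver binding. The nearest liver interval was less than 1 kb away for 188 sites (8.13%), 1 to 10 kb away for 890 (38.5%), 10 to 100 kb away for 1085 (46.9%) and at least 100 kb away for 149 (6.44%). The median distance was 11486.5 bp. Just inside the liver limit, 12 sites lay within 100 bp of a liver interval, and just outside it 21 liver-overlapping sites shared fewer than 100 bp with one. The centres of the WT and 3SA intervals were a median of 98 bp apart, and 1175 sites (50.8%) had centres within 100 bp. The last 50 bp inside the 300 bp limit held 189 sites, and the 3SA centre of 185 further intervals absent in liver lay in the 50 bp beyond it, both sets with a median WT score of 36.

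Peak scores of the sites were mostly low. Every interval carries a peak score in whole numbers from 30 upwards. The lowest value is what 10 times the negative log10 of the FDR limit gives, and scores can be ordered within a list but not between lists. The WT score ranged from 30 to 2062 with a median of 36, and the 3SA score from 30 to 1543 with a median of 40. The liver-overlapping sites had medians of 65 in WT and 100 in 3SA. A score of at least 50 was reached by 564 sites in WT (24.4%), by 696 in 3SA (30.1%) and in both lists by 376 (16.3%), while 1428 sites (61.8%) stayed below it in both. Of the 1185 WT muscle intervals with a score of at least 100, 168 (14.2%) were sites absent in liver and 810 (68.4%) were liver-overlapping sites. WT and 3SA scores had a Spearman correlation of 0.44 across the 2312 sites, which share their libraries, and of 0.73 across the liver-overlapping sites. The plot of both scores shows the sites that stand far from the bulk.

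**Figure D1:**
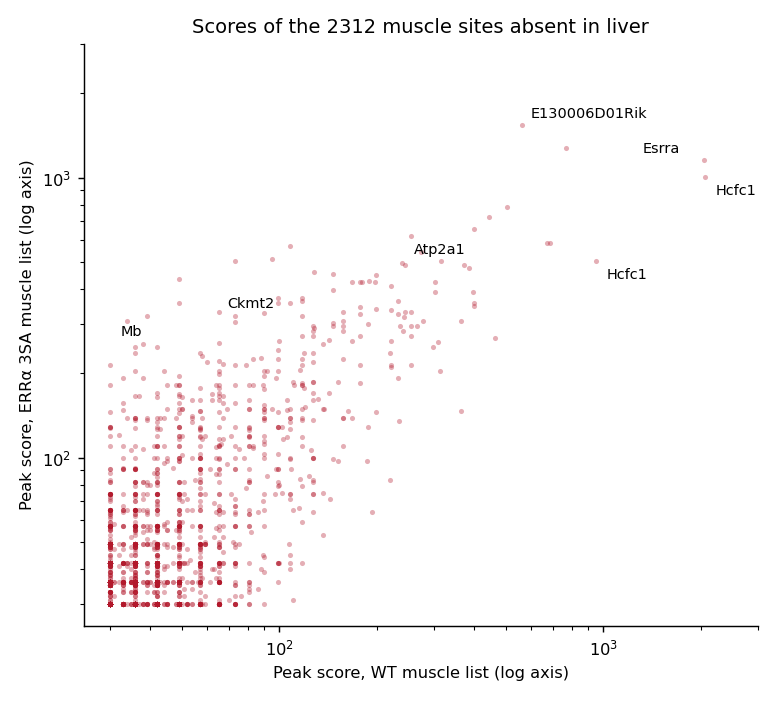
Peak score of each of the 2312 sites in the WT muscle list (x axis) and in the ERRα 3SA muscle list (y axis), both on log axes, with 1 point per site. Most points lie near the lowest score of 30, the sites in Esrra and Hcfc1 have WT scores of 2055, 2062 and 950, and the labelled sites at Mb and Ckmt2 have 3SA scores of 248 and 332. Positions can be ordered along each axis but not between the axes.

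The leading sites, by the larger of their top percentages in both muscle lists, included the gene of the immunoprecipitated protein. The first lay in the last intron of Esrra, the gene of ERRα itself, at chr19:6911468-6912885, with a score of 2055 in WT and 1158 in 3SA. Its nearest TSS in the authors' annotation was that of Mir6990, and a liver interval lay 191 bp away. Of its 1418 bp, 981 (69.2%) were exonic in RefSeq. A pair of sites lay in introns of Hcfc1, the gene of a transcriptional coregulator on the X chromosome, 168.9 and 172.9 kb from the nearest liver interval. The Hcfc1 site at chrX:73955121-73955653 had a score of 2062 in WT and 1002 in 3SA with 433 of its 533 bp (81.2%) in exons. The Hcfc1 site at chrX:73959123-73959733 had scores of 950 and 502 with 310 of its 611 bp (50.7%) in exons. None of these 3 intervals held the ERRE in its central 300 bp. The part of exon content in these scores was not tested.

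Other leading sites were mostly outside exons. Trappc10, a gene of a vesicle tethering complex, had a site 16525 bp upstream with scores of 672 and 585, and Pik3cd had the ERRE site shown above with scores of 684 and 585. Scores in parentheses are given for WT first and 3SA second. The following sites were near Tmem125 (398 and 389), 1700123J17Rik (386 and 475), Zcchc24 (400 and 357), 1700064M15Rik (302 and 422), Eef1a2 (302 and 389) and Pebp4 (267 and 296). Exons covered 42.6% of the interval at Tmem125, 14.6% of that at 1700064M15Rik and no base of those at Trappc10, Pik3cd and Eef1a2, where Eef1a2 encodes the translation elongation factor of muscle and neurons. Of the sites farther than 20 kb from any TSS, the first was intergenic, 37693 bp from E130006D01Rik, with a score of 560 in WT and of 1543 in 3SA. The next lay in introns of Myo18b, which encodes an unconventional myosin of striated muscle (504 and 788), of Pstpip2 (445 and 726) and of Togaram2, listed as Fam179a (400 and 657). None of these 4 distal sites held the ERRE in its central 300 bp.

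The sites were next grouped by the genes near them. Within 20 kb of a TSS lay 1200 sites (51.9%), at 1110 genes by the authors' nearest-gene annotation. Of these genes, 1030 had 1 site, 70 had 2 and 10 had 3. Among 21883 protein-coding RefSeq genes, 976 (4.46%) had such a site, which is the background for the gene lists, beside 1446 (6.61%) for liver-overlapping sites and 1973 (9.02%) for the mirror class, the 4845 liver sites of both genotypes absent in muscle. Of the 976 genes, 638 (65.4%, interval 62.3 to 68.3) had a liver interval elsewhere within 20 kb of the TSS, against 45.0% of all protein-coding genes, and 144 (14.8%) also had a liver-overlapping site. Absence of the site in liver was thus compatible with other liver intervals near the gene.

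Contraction genes had sites absent in liver above the background share. Of 49 sarcomere genes, 10 (20.4%, interval 11.5 to 33.6) had a site within 20 kb. Liver-overlapping sites were at 7 of them (14.3%, interval 7.10 to 26.7), which is also above their background of 6.61%, and liver sites absent in muscle at 2. The genes with a site absent in liver included Tcap, Mylk2, Actn3, Myom2, Tnnt3, Des, Xirp1, Flnc and Pdlim5. Tcap, which encodes the titin cap protein of the Z-disc, had a promoter site at chr11:98383184-98384168 with a score of 236 in WT and 296 in 3SA, 350 bp from a liver interval, and another with scores of 78 and 100 in an intron of Stard3. Mylk2, the gene of the skeletal myosin light chain kinase, had an intronic site with scores of 81 and 91. Actn3, which encodes the α-actinin of fast fibres, had one with scores of 73 and 110. The lower members were Myom2 (57 and 88, and a further site with 49 and 49), Tnnt3, which encodes fast troponin T (49 and 57), and Des, which encodes desmin (36 and 42), the latter with the ERRE. Of the 14 sites at sarcomere genes this was the sole one with the ERRE. For 4 of the 10 genes every site within 20 kb of the TSS lay at least 10 kb from a liver interval.

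Genes of calcium handling were above the background as well. A site was found at 10 of 33 genes (30.3%, interval 17.4 to 47.3). Liver-overlapping sites were at 6 (18.2%, interval 8.61 to 34.4), also above their background, and liver sites absent in muscle at 2. Atp2a1, the gene of the calcium pump SERCA1 of fast fibres, had an intronic site at chr7:126458387-126459688 with a score of 244 in WT and 488 in 3SA. Srl, which encodes the sarcoplasmic reticulum protein sarcalumenin, had scores of 168 and 422 and the ERRE site at Pvalb 127 and 100. The site at Cacna1s, the gene of the voltage sensor of excitation-contraction coupling, was weak in both lists (49 and 71), as were those at Cacnb1 (36 and 65), Rcan1 (33 and 57) and Clcn1 (30 and 88). Promoter sites were called at Casq2, a calsequestrin gene (90 and 39), and at Jph2, a junctophilin gene (30 and 59), which had a second, intronic site with the ERRE (42 and 57). A stronger intronic site of Jph2 with the ERRE (128 and 290) lay 33716 bp from the TSS, outside these counts. At Casq1 the scores were 65 and 31. For 7 of these 10 genes the liver lists held no interval within 10 kb of any of their sites within 20 kb of the TSS. Srl had another site, 25073 bp from the TSS (99 and 243), with a liver interval 7395 bp away.

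Genes of phosphate transfer, oxygen storage and sugar use also had sites. In the list of energy buffering, 6 of 14 genes (42.9%, interval 21.4 to 67.4) had a site, the same number as had a liver-overlapping site. Mb, the myoglobin gene, had 3 sites within chr15:77014257-77022108 with WT scores of 119, 118 and 36 and 3SA scores of 177, 225 and 248. Ckmt2, the gene of sarcomeric mitochondrial creatine kinase, had an intronic site with a score of 65 in WT and 332 in 3SA, and a second with 33 and 36. Ckm, the gene of muscle creatine kinase, had a site 273 bp from the TSS with 65 in both lists. Prkag3, which encodes the AMPK subunit of glycolytic muscle, had scores of 118 and 181, Slc25a4 67 and 156 and Ak1 42 and 36. In the list of glycolysis and glycogen, 7 of 37 genes (18.9%, interval 9.48 to 34.2) had a site, against 13 with a liver-overlapping site. Pfkm had 3 sites within chr15:98113863-98119924, with scores of 255 and 214, 71 and 119, and 30 and 35, the middle one with the ERRE shown above. Gys1, the muscle glycogen synthase gene, had scores of 221 and 210, Pkm 57 and 237 and Eno3, the muscle enolase gene, 42 and 49. Gpi1, Slc16a3 and Ldhb had WT scores of 36, 36 and 52.

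The mitochondrial lists were at or near the background in these sites and far above it in the liver-overlapping ones. No TCA cycle gene of 30 had a site absent in liver (upper bound of the interval 11.4%), whereas 21 had a liver-overlapping site and 8 a liver site absent in muscle. Of 75 oxidative phosphorylation genes, 5 (6.67%, interval 2.88 to 14.7) had a site absent in liver and 48 (64.0%) a liver-overlapping site. The 5 were Ndufs7 (90 and 103), Ndufb5 (57 and 100), Ndufab1 (45 and 30), Atp5e (30 and 59) and Uqcr11, with 2 sites near the lowest score. Of 36 fatty acid oxidation genes, 3 had a site absent in liver (8.33%, interval 2.87 to 21.8) and 16 a liver-overlapping site. The 3 included Cpt1b, the muscle form of the enzyme that admits fatty acids to mitochondria, with a promoter site at chr15:89425400-89426957 that held a MEF2 element and had scores of 178 and 214. The other members were Ucp3, an uncoupling protein of muscle (41 and 100), 357 bp from a liver interval, and Etfdh, which passes electrons from fatty acid oxidation to ubiquinone (59 and 32). Of 27 genes that the study names, 3 had a site absent in liver within 20 kb by nearest gene, and 14 had a liver-overlapping site. The background shares of protein-coding genes were 4.46% and 6.61%. The 3 genes were Ldhb, Slc25a4 and Ndufb5, which had 1 liver-overlapping site each as well. Their sites absent in liver lay 165, 9146 and 542 bp from the nearest liver interval, and the Ldhb site had the lowest 3SA score of 30. Esrra is among the 27, but its site is counted for Mir6990. Differences between site classes in the number of genes were counted over the same genes and were given no test.

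**Figure D2:**
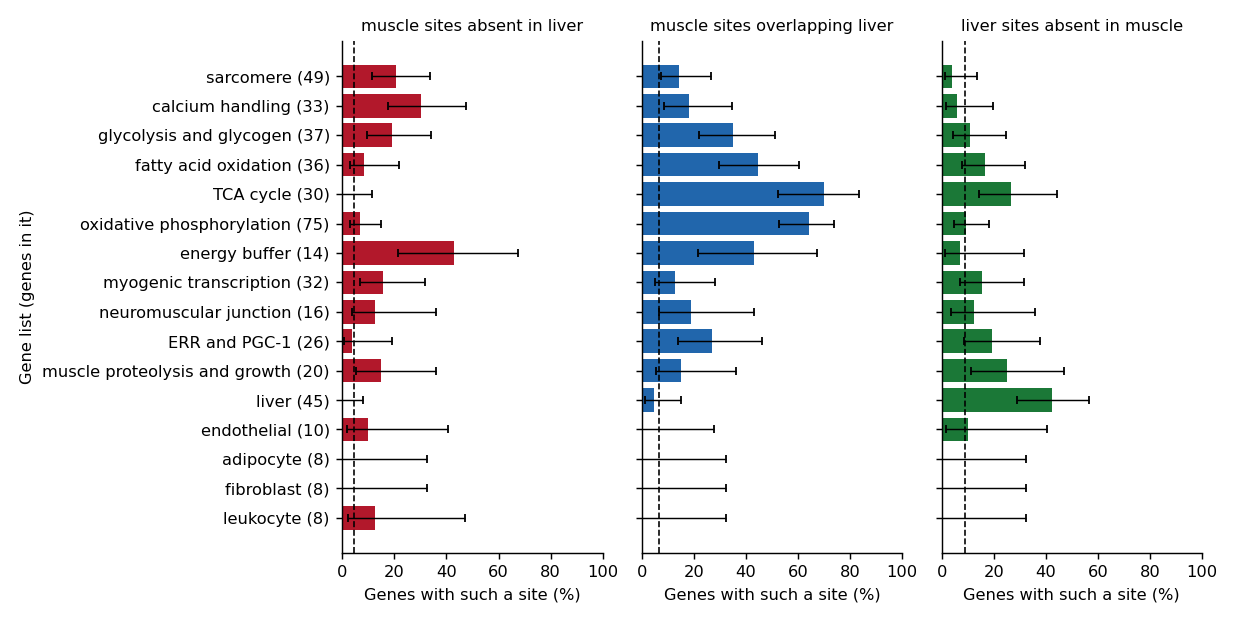
Share of the genes of each list (y axis, number of genes in parentheses) with a site within 20 kb of the TSS (x axis, %), for muscle sites absent in liver, muscle sites overlapping liver and liver sites absent in muscle. Bars are shares, error bars are 95% Wilson intervals and dashed lines are the shares of all protein-coding genes, 4.46%, 6.61% and 9.02%. On the left, the intervals of the sarcomere, calcium, glycolysis, energy buffer, myogenic transcription and proteolysis lists lie above the line. In the middle, those of the sarcomere, calcium, glycolysis, fatty acid oxidation, TCA cycle, oxidative phosphorylation, energy buffer and ERR lists do. On the right, those of the TCA cycle, proteolysis and liver lists do.

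Of 32 genes of myogenic transcription, 5 (15.6%, interval 6.86 to 31.8) had a site within 20 kb, 4 had a liver-overlapping site and 5 a liver site absent in muscle. Tead1, the gene of a factor that binds muscle promoters, had 2 sites with scores of 157 and 139 and of 102 and 129, the stronger with a MEF2 element. Myog, the gene of myogenin, had an intronic site with scores of 59 and 50. Nr4a1, the gene of the orphan receptor Nur77, had a promoter site with both the ERRE and a MEF2 element at scores of 49 and 65. Pax7, a gene of muscle stem cells (57 and 30), and Vgll2 (30 and 30) completed the list. Counting sites inside the gene limits, chosen after the data were seen, raised the background to 5.64% and added Eya4, Tead4, Foxo3, Nfix, Tbx15 and Hdac4. Foxo3, a regulator of atrophy genes, had an intronic ERRE site with scores of 99 and 370, and Hdac4 a deep intronic site with 400 and 349. In the list of ERR and PGC-1 genes, 1 of 26 (3.85%) had a site within 20 kb by nearest gene, Esrrb (30 and 42). The leading site in Esrra is not in this count, since its nearest TSS was that of Mir6990. Sites inside the gene limits were present at genes including Esrra, Ppargc1b and Rxra.

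Both atrophy ligase genes had a site. Fbxo32 (81 and 127) and Trim63 (81 and 119) encode the ubiquitin ligases atrogin-1 and MuRF1, and with Igf1r (36 and 30) they were the 3 of 20 genes of the proteolysis and growth list (15.0%, interval 5.24 to 36.0), of which 3 had a liver-overlapping site and 5 a liver site absent in muscle. Of 16 neuromuscular junction genes, 2 had a site (12.5%, interval 3.50 to 36.0), an interval that includes the background of 4.46%. Liver-overlapping sites were at 3 of the 16 and liver sites absent in muscle at 2. The genes with a site absent in liver were Lrp4 (118 and 59), a receptor for agrin, and Sgca (36 and 57), a sarcoglycan gene. None of 45 liver genes had a site absent in liver (upper bound 7.87%), while 19 (42.2%) had a liver site absent in muscle. Of the markers of other cells in muscle, Eng of 10 endothelial genes and Adgre1 of 8 leukocyte genes had sites with scores of at most 42, and none of the 8 adipocyte or the 8 fibroblast genes had any within 20 kb. Inside the gene limits, 1 fibroblast gene, Fbn1, which encodes fibrillin-1, had an intronic site (67 and 166). A few further strong sites were noted after their values were seen. These lay at Dysf, the dysferlin gene (275 and 543), near Mir133a-2 (222 and 409) and Mir1a-1hg (244 and 332), which give rise to muscle microRNAs, at Lpin1, a phosphatidate phosphatase gene (255 and 296), and near Klf15, a gene of a metabolic regulator (232 and 326).

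Several loci held groups of sites. With centres no more than 10 kb from the next, 199 sites (8.61%) fell into 93 groups, of which 11 had at least 3 sites. Mir1a-1 and Mir133a-2 shared a group of 4 sites within chr2:180390055-180398696 with scores of up to 222 in WT and 409 in 3SA. The other group of 4, at Hspg2, the perlecan gene, reached 81 and 129. Groups of 3 were found at Mb, at Pfkm, at Lrrc38, which encodes a subunit of a potassium channel (up to 75 and 198), at Tnnt3 and Prr33 (up to 81 and 149) and at Sgk1, a kinase gene (up to 44 and 139). By the nearest-gene count, Pfkm, Kcnc1, Mb, Lrrc38 and Fbrsl1 were the first of the 10 genes with 3 sites, and all 3 sites at Kcnc1 held the ERRE, at scores of 157 and 225, 65 and 116, and 65 and 48. The Kcnc1 site with scores of 65 and 116 was centred in a SINE. Sites were spread over 21 chromosomes, at 0.54 to 1.40 per Mb on the autosomes. The X chromosome had 9 sites (0.389%) although it is 6.28% of the bases. It was thin in the whole lists too, with 0.193% of the WT and 0.136% of the 3SA muscle intervals and 0.289% and 0.275% of the liver intervals. The share of the sites, which rests on 9 of them, was above that of each list.

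Muscle sites absent in liver were farther from genes than the liver-overlapping sites. The median distance to the TSS was 18336 bp against 9532 bp. It was 20804.5 bp for the WT intervals without a 3SA partner and 17119 bp for the liver sites absent in muscle, so this distance was not particular to the sites. Promoter-TSS was the annotation of 108 sites (4.67%, interval 3.88 to 5.61), against 13.2% of the liver-overlapping sites, a difference of -8.58 percentage points (Newcombe interval -10.1 to -7.05). Introns held 1041 sites (45.0%), a difference of -1.24 points from the liver-overlapping sites with an interval from -3.97 to 1.5 that includes 0. Intergenic sites were 869 (37.6%), 8.08 points more (5.48 to 10.7), and exonic ones 180 (7.79%), 2.72 points more (1.38 to 4.10). Against the WT intervals without a 3SA partner, of which 5.22% were at promoters, the difference was -0.548 points (-1.40 to 0.436). For intergenic sites the difference from those intervals was -2.52 points (-4.59 to -0.419). Of the liver sites absent in muscle, 4.66% were at promoters and 40.4% were intergenic. CpG islands held 71 sites (3.07%), a difference of -3.38 points from the liver-overlapping sites (-4.53 to -2.22).

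Repeats at the interval centre were as common in both classes but of other kinds. A repeat was named at 480 sites (20.8%), and the difference from the liver-overlapping sites was 1.60 points (-0.594 to 3.81). SINEs, which are short interspersed elements, were at 4.37% of the sites and 9.78% of the liver-overlapping sites, a difference of -5.41 points (-6.79 to -4.02). LINEs were at 7.05% against 2.87%, 4.18 points more (2.99 to 5.43), and LTR elements at 5.75% against 3.47%, 2.28 points more (1.13 to 3.48). Against the WT intervals without a 3SA partner, the difference for any repeat was -6.37 points (-8.09 to -4.57). LINEs and LTR elements were also less frequent than in those intervals. The differences were -3.34 points (-4.41 to -2.15) for LINEs and -2.66 points (-3.625 to -1.57) for LTR elements. The GC content of the called interval had a median of 54.4%, against 53.7% for the liver-overlapping sites and 48.4% for the liver sites absent in muscle.

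**Figure D3:**
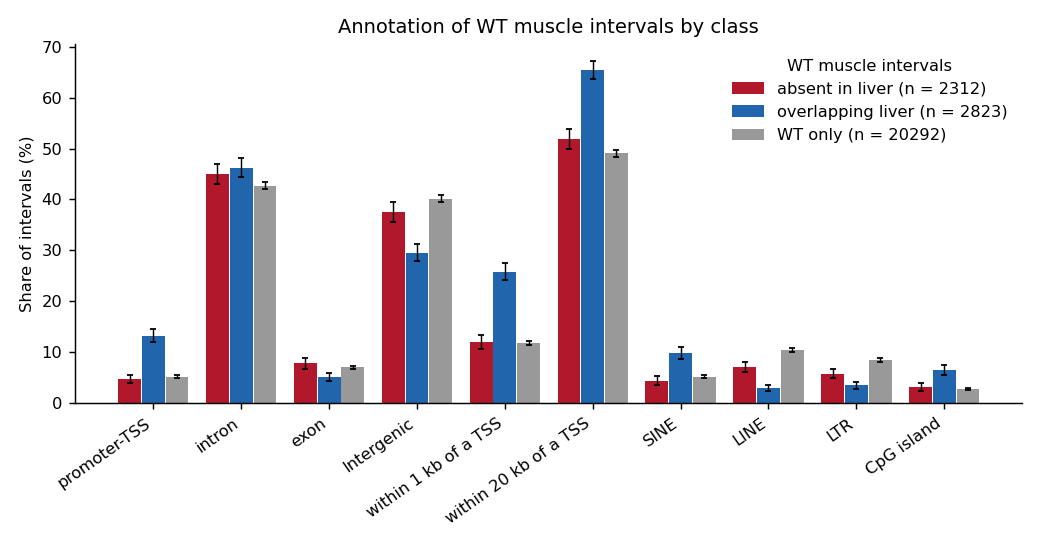
Share of intervals (y axis, %) with each annotation (x axis) for the 2312 muscle sites absent in liver, the 2823 overlapping liver and the 20292 WT intervals without a 3SA partner. The last class is labelled WT only, which means no 3SA centre within 300 bp, and some of its intervals share bases with a 3SA interval. Bars are shares and error bars 95% Wilson intervals. The sites absent in liver are closer to the WT-only intervals than to the liver-overlapping ones in the promoter and TSS columns.

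The ERRE was enriched in the sites but rarer than in the liver-overlapping ones. Within the central 300 bp, 121 sites (5.23%, interval 4.40 to 6.22) held TCAAGGTCA on either strand, against 0.822% (0.599 to 1.13) of windows 5 kb to either side, a ratio of 6.37. The reversed letters ACTGGAACT, with the same base content, were in 0.260% of the sites and in 0.497% of the flanking windows. Of the liver-overlapping sites 18.2% held the ERRE, a difference of -12.9 points for the sites absent in liver (-14.6 to -11.2). The WT intervals without a 3SA partner held it in 1.79%, and the sites were 3.44 points higher (2.58 to 4.44). At WT scores of at least 100 no excess over those intervals, which were not limited to intervals absent in liver, was resolved. The difference there was -3.15 points with an interval from -9.34 to 3.33 that includes 0. Among all 32851 RefSeq promoters of the same length, 0.423% hold these letters. Of the first 10 sites in the combined order, the one at Pik3cd held it.

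The ERRE share was also taken by WT score. With scores of 30 to 49, 50 to 99 and at least 100, the share of sites with the ERRE was 3.89%, 9.60% and 8.93%, against 16.1%, 19.5% and 19.6% of the liver-overlapping sites. In the last class the difference was -10.7 points (-15.2 to -4.82). The WT intervals without a 3SA partner held it in 1.46%, 4.34% and 12.1%, so the sites were higher in the first classes, by 2.43 (1.60 to 3.46) and 5.25 points (2.49 to 8.67), but not in the last. The core AGGTCA behaved otherwise. It was in 34.4% of all sites, in 19.2% of the flanking windows and in 58.1% of the liver-overlapping sites. By the same score classes it was in 29.1%, 46.5% and 61.9% of the sites, and in the last class the difference from the liver-overlapping sites (59.0%) was 2.89 points with an interval from -5.35 to 10.7 that includes 0. Against the WT intervals without a 3SA partner of that class (41.5%) it was 20.4 points higher (10.2 to 29.9).

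**Figure D4:**
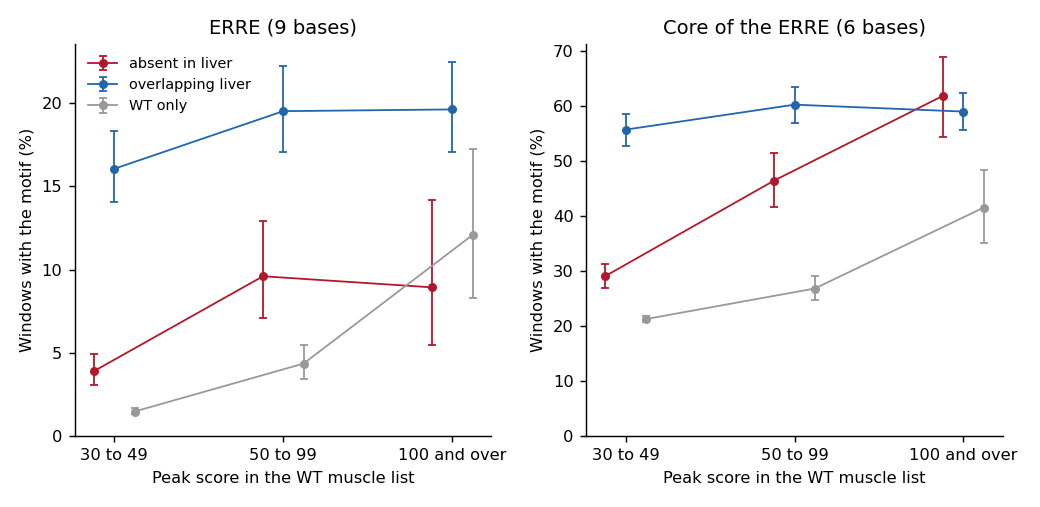
Share of 300 bp windows (y axes, %) with the 9-base ERRE (left) and with its 6-base core (right) by WT peak score (x axes), for muscle sites absent in liver, muscle sites overlapping liver and WT intervals without a 3SA partner. The last class is labelled WT only, which means no 3SA centre within 300 bp, and was not limited to intervals absent in liver. Points are shares and bars 95% Wilson intervals. The ERRE share of the sites absent in liver stays below that of the liver-overlapping sites in each score class, while the core reaches 61.9% against 59.0% at scores of at least 100. In that class the ERRE share of the WT-only intervals is 12.1%, against 8.93% of the sites absent in liver.

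The bases before the core and the words of 6 bases were examined after these shares were seen. Of 971 cores in the sites, 12.6% were preceded by TCA, which makes the ERRE, and 10.1% by CCA, against 4.0% and 2.77% of 975 cores in the flanking windows and 23.0% and 15.0% of 2605 cores in the liver-overlapping sites. At WT scores of at least 100, TCA preceded 11.5% (interval 7.06 to 18.03) and CCA 15.3% (10.1 to 22.4) of the 131 cores of the sites. In the liver-overlapping sites of that class TCA preceded 24.8% (22.0 to 27.8) of 839 cores and CCA 16.0%. At least 2 cores in 1 window were found in 6.83% of the sites, 1.88% of the flanking windows and 22.4% of the liver-overlapping sites. Among all 2080 words of 6 bases, counted with their reverse complements, AGGTCA ranked 5 by its excess in the sites over the flanking windows. The 4 words ahead of it, such as CCCTGC (38.8% against 21.6%), were rich in G and C, as were the windows themselves, with a median of 54.7% against 47.0% in the flanks. In the 564 sites with a WT score of at least 50, AGGTCA ranked 1, at 51.1% against 18.6%, followed by AAGGTC at 40.2% against 13.6%.

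Position and setting of the ERRE varied within the sites. The 122 occurrences lay a median of 66.5 bp from the interval centre, against a median of 79 bp for the 39 occurrences in the flanking windows. Within 50 bp of the centre lay 52 of the 122 (42.6%) and 16 of the 39. The ERRE was in 72 of 1041 intronic sites (6.92%, interval 5.53 to 8.62), 37 of 869 intergenic sites (4.26%, 3.10 to 5.81) and 3 of 108 promoter sites (2.78%, 0.949 to 7.85). Sites within 20 kb of a TSS (4.83%) and beyond (5.67%) had overlapping intervals, as did sites in repeats (5.42%) and outside them (5.19%). By the combined order, the first 50, 100 and 200 sites held it in 6.0%, 8.0% and 12%.

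**Figure D5:**
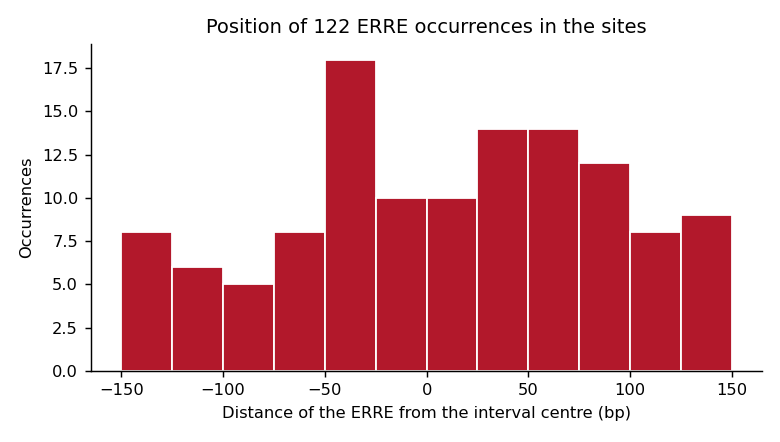
Number of ERRE occurrences (y axis) by their distance from the centre of the called interval (x axis, bp, in bins of 25 bp), for the 122 occurrences in the sites. Occurrences are spread over the whole window, with 52 of 122 within 50 bp of the centre.

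Elements of muscle factors showed smaller differences. The E-box CAGCTG was in 579 sites (25.04%, interval 23.3 to 26.8), in 15.7% of the flanking windows and in 21.5% of the liver-overlapping sites, a difference of 3.51 points (1.18 to 5.84). Its ratio to the flanks, 1.60, was close to that of words such as CTGGGC (1.59). At WT scores of at least 100 it was in 30.4% of the sites and 20.2% of the liver-overlapping sites, 10.1 points more (3.04 to 17.9). In the lower score classes the differences were 1.09 (-2.14 to 4.24) and 4.54 points (-0.316 to 9.68), and from the WT intervals without a 3SA partner at scores of at least 100 it was 8.62 points (-0.264 to 17.5), all with intervals that include 0. A MEF2 element was in 35 sites (1.51%, interval 1.09 to 2.1), which is below the 4.93% of the flanking windows, and the difference from the liver-overlapping sites was -0.045 points (-0.721 to 0.661). At WT scores of at least 100 it was in 8 of 168 sites (4.76%, interval 2.43 to 9.11) and in 1.98% of the liver-overlapping sites, 2.79 points more (0.162 to 7.20). The lower score classes (-0.390 points, -1.34 to 0.414, and 0.918 points, -0.547 to 2.99) and the WT intervals without a 3SA partner at scores of at least 100 (2.83 points, -0.914 to 7.34) gave intervals that include 0. The serum response element CArG (0.952%) and the TEAD element GGAATG (15.9%) differed from the liver-overlapping sites by intervals that include 0, -0.826 to 0.340 and -0.720 to 3.25 points. Elements of housekeeping promoters were less frequent than in the liver-overlapping sites, GGGCGG of SP and KLF factors with a difference of -6.67 points (-8.73 to -4.57) and the NRF1 element with a difference of -1.06 points (-1.61 to -0.547). The liver-type elements CAAAGTCCA of HNF4 (0.433%) and TGTTTAC of FOXA (2.47%) showed no difference beyond the intervals, from -0.278 to 0.475 and from -0.595 to 1.10 points, and TTGCNNAA of C/EBP was in 7.96%, a difference of -2.14 points (-3.70 to -0.557). The AP-1 element TGANTCA was in 6.83%, with an interval of the difference from -1.90 to 0.927 points. In all, 13 patterns and the reversed ERRE were searched on both strands, and the core lies inside the ERRE.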

How the data were processed

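The data are 4 ERRα ChIP-seq peak lists, from muscle and liver of either genotype. The 4 input samples were grouped by their titles and hold no values used here. Per the submitters' processing notes and the methods, the authors ran Trimmomatic 0.36 for trimming, BWA 0.7.12 for mapping to mm10 and Picard 2.0.1 for removal of duplicates, called peaks with MACS2 2.1.1.20160309 against input DNA at an FDR under 0.001, left out mitochondrial and scaffold peaks and annotated the rest with HOMER 4.9.1. In the deposited lists the score is a whole number from the peak caller, which the authors set within each library. The GC and CpG contents are deposited as fractions of the called interval. Read numbers are not analysed here, so depth and precision per site are unknown.

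All intervals lay within the chromosomes of GRCm38.p6, and recomputed GC contents equalled the listed ones within 0.0001 for all but 8 intervals. Centres were the midpoints of intervals. Ties in score had the best rank of the tie, a rank divided by the list length gave the top percentage, and sites were ordered by the larger of their WT and 3SA top percentages. Motifs were searched on both strands in the 300 bp around the centre and in windows 5 kb to either side, and promoters came from RefSeq (GRCm38.p6). Gene symbols of the lists were matched to RefSeq, 447 of 447. Shares have 95% Wilson intervals and differences Newcombe intervals. No test between conditions was made.

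Named are the first 12 sites within 20 kb of a TSS, the first 4 farther away, the first 4 genes per list, the 5 genes with the most sites, and genes that the study names. Sequences chosen by rank come from intronic or intergenic sites, with chromosome 18 left out. Other members of a list were added to its count, and 2 genes named by these rules or counts are not reported here. The sites, lists and tests were chosen with earlier results of these data known. The alternatives are given with the dependence on processing. Interval and motif functions were tested on simulated data. The software was pysam 0.24.0, pandas 2.3.3, numpy 2.4.6, matplotlib 3.10.9 and scipy 1.17.1 under Python 3.11.15.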

Additional observations from a re-analysis of the deposited data

How the results depend on the processing

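Of 98 alternative values, 55 stayed within 1.5 times the reported count or within the Wilson interval of the reported share. The count of 2312 sites became 1175 and 3776 with centres within 100 and 1000 bp, 376 and 135 with scores of at least 50 and 100 in both muscle lists, and 1398 with the 3SA list kept to the length of the WT list. The 1110 genes with a site within 20 kb became 541, 1791, 176, 68 and 663 under the same settings and 578 within 5 kb. The 10 sarcomere genes became 6 with centres within 100 bp, 5 and 2 with scores of at least 50 and 100, and 6 within 5 kb, and were 9 with sites inside the gene limits, a setting chosen after seeing the data.

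The promoter share of 4.67% was 3.32% with centres within 100 bp, 1.86% and 2.22% at scores of at least 50 and 100, 5.90% without repeats and 12.0% as within 1000 bp of a TSS. The share within 20 kb of a TSS was 48.3% and 54.0% with centres within 100 and 1000 bp, 54.3% with shared bases, 49.7% at scores of at least 50, 57.4% without repeats, 25.9% within 5 kb and 73.1% within 50 kb. The ERRE share of 5.23% was 6.38% and 3.79% with centres within 100 and 1000 bp, 12.5% and 9.63% at scores of at least 50 and 100, 7.58% with the shortened 3SA list, 7.74% as TNAAGGTCA and 8.13% over the whole interval. The MEF2 share of 1.51% was 3.19% and 3.70% at those scores and 3.46% over the whole interval. The repeat share of 20.8% was 24.3% and 18.1% with centres within 100 and 1000 bp, 19.0% with shared bases, 16.2% and 12.6% at those scores and 18.6% with the shortened list. Taking the rows of the 3SA list, other liver limits or merged neighbours moved no value in this way. The causes of these changes were not tested.

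No paired analysis was possible because each condition is 1 library. Read depth is unknown, so sites near the lowest score of 30 cannot be weighed by read number.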
